A study of Homo sapiens with 6 samples.

Results

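A set of 10 genes that encode feedback inhibitors of the ERK pathway and ETS transcription factors was examined in BT-549 cells. The genes are DUSP1, DUSP4, DUSP5, DUSP6, SPRY2, SPRY4, SPRED1, SPRED2, ETV4 and ETV5. They were chosen by symbol, as genes known to report ERK activity, at a time when earlier results of these data had been seen. All 10 were found among the 19792 genes listed by the authors. BT-549 is an established line of human triple-negative breast cancer. A vector with puromycin resistance had placed an shRNA against WDR5 in these cells, under control of a tetracycline-inducible promoter. WDR5 is a core subunit of the COMPASS complexes, which methylate histone H3 on lysine 4. Of the 6 cultures, 3 received 0.1% DMSO as vehicle, and the other 3 received doxycycline (DOX) at 500 ng/ml, which switches on the shRNA. Cells of both groups carried the shRNA, so DOX itself and silencing of WDR5 cannot be told apart in this design.

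Each gene had 1 usable value, the authors' mean normalized count over all 6 libraries, vehicle and DOX together. The difference between DOX and vehicle stands only in the authors' own comparison, which was not used here. Accordingly, no effect of WDR5 silencing is given, and the levels below describe the vehicle and DOX cultures as 1 pool. With no values per library in use, neither sequencing depth nor the spread between cultures is known. An order of levels is therefore given without a test.

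In the ERK pathway, RAS proteins activate RAF kinases, which phosphorylate MEK, which in turn phosphorylates ERK. Active ERK induces genes that switch the pathway off again. DUSP proteins remove the activating phosphates from MAP kinases, whereas Sprouty (SPRY) and SPRED proteins act upstream, at the level of RAS and RAF. ETV4 and ETV5 belong to the PEA3 group of ETS factors, whose transcription and activity rise with ERK signalling. Levels of these transcripts are for this reason widely read as a record of ERK output in tumor cells.

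All 10 genes were expressed, as were 13548 of all 19792 genes listed. The mean normalized counts extended from 409 for ETV4 to 5642 for DUSP4, and 7 of the 10 were at or above 1000, as were 40.7% of the 13548 expressed genes (those at 10 or more on this scale). The median of the 10 genes was 1614, and that of the 13548 genes was 677. Counts rise with transcript length, so these counts do not rank genes by abundance. For that purpose, they were divided by the length of the MANE Select transcript, the reference transcript of a gene. On the scale of counts per kilobase (kb), the 10 genes extended from 142 for SPRED1 to 1080 for DUSP6. Their median was 453 per kb, beside 208 per kb over the 13024 expressed genes with a known length. By this measure, 7 of the 10 genes lay above the median gene. DUSP6, DUSP4, ETV5 and SPRY2 lay above the 75th percentile. None reached the 90th with this length and background. DUSP6 did with the union of exons as the length (91.9) and against every gene listed with a known length (90.2). DUSP5 passed the 75th percentile under both of these choices (78.8 and 77.5), and SPRY4 under the second (78.7).

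**Figure D1:**
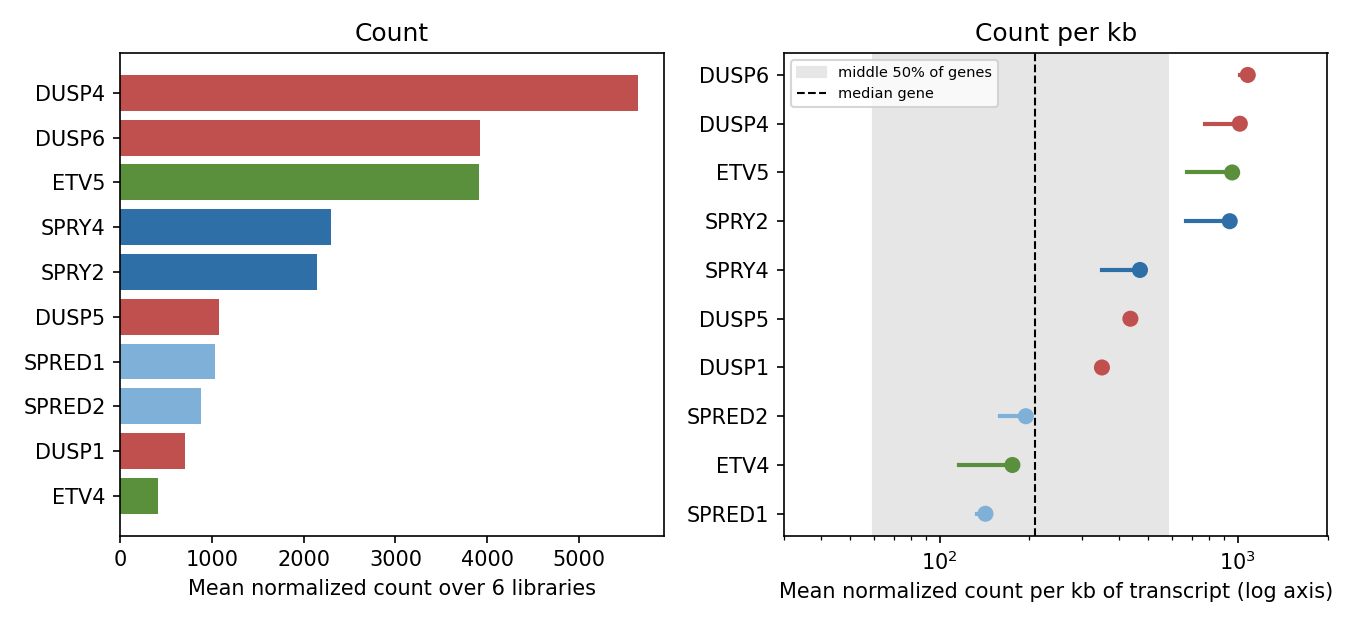
Levels of the 10 genes in BT-549 cells as the authors' mean over 6 libraries, with DUSP genes in red, SPRY in dark blue, SPRED in light blue and ETS factors in green. Left, bars give the mean normalized count, with DUSP4 highest at 5642 and ETV4 lowest at 409. Right, points give the count per kb of the MANE Select transcript on a log axis, and the line from each point reaches the values for the longest transcript and the union of exons. The dashed line is the median expressed gene (208 per kb) and the grey band holds the middle 50% of genes (59.5 to 584 per kb). Both use the reference transcript length only, so they serve as background for the points and not for the other lengths. Against a background of union lengths, SPRED1 and SPRED2 were at the 50.9 and 55.3 percentile. No error bars are drawn, since each value is 1 pooled mean.

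The 4 DUSP phosphatases together held 50.03% of the summed counts per kb of the 10 genes, where each other family has 2 genes. Their median was 726 per kb, and that of the SPRY pair 705 per kb. Both medians lie within wide ranges, from 350 to 1080 per kb for the DUSP genes and from 470 to 940 per kb for the SPRY genes. DUSP6, a cytoplasmic phosphatase with a strong preference for ERK, had a mean normalized count of 3918, or 1080 per kb, at the 86.3 percentile of expressed genes. DUSP4, a nuclear phosphatase that also acts on JNK and p38, had the higher count (5642) but a longer transcript, and thus 1016 per kb (85.4 percentile). The values of DUSP6 and DUSP4 per kb differed by a ratio of 1.06, and with the union of exons by 1.31.

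DUSP5 and DUSP1 were lower. DUSP5, a nuclear phosphatase that acts on ERK and also retains it in the nucleus, had a count of 1081 and 436 per kb (68.3 percentile). DUSP1, the founding nuclear MAP kinase phosphatase and an immediate early gene of stress and growth factor responses, had a count of 705 and 350 per kb (62.8 percentile). Per kb, DUSP6 exceeded DUSP5 by 2.48-fold and DUSP1 by 3.09-fold. The transcript of DUSP1 is the shortest of the set at 2013 bases, so that DUSP1 stood seventh of the 10 genes per kb.

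Among the inhibitors that act upstream, the SPRY genes were above the SPRED genes. SPRY2 and SPRY4 are Sprouty proteins, which restrain growth factor signalling to RAS and RAF. They had nearly equal counts of 2148 and 2303, but the transcript of SPRY4 is longer (4904 against 2286 bases). Per kb, SPRY2 was at 940 (84.2 percentile) and SPRY4 at 470 (70.1 percentile). With the union of exons as the length, the values were 669 and 351 per kb. SPRY4 has 6 annotated transcripts and SPRY2 has 2, and the isoforms that these cells use were not measured in the table.

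SPRED1 and SPRED2 recruit neurofibromin, the RAS GTPase-activating protein encoded by NF1, to the plasma membrane. SPRED1 had a count of 1035 and SPRED2 of 879. These genes have long transcripts of 7270 and 4519 bases, so that their levels per kb were 142 (41.2 percentile) and 194 (48.3 percentile). Per kb, both were below the median gene. NF1 itself was at 220 per kb, close to the median gene. The SPRED pair held 5.85% of the summed counts per kb of the 10 genes, beside 24.5% for the SPRY pair.

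The ETS factors differed most within a family. ETV5 had a count of 3909 and 958 per kb (84.5 percentile), whereas ETV4 had a count of 409 and 175 per kb (45.8 percentile). Per kb, the ratio of ETV5 to ETV4 was 5.46, and with the union of exons it was 5.81. ETV1, the other PEA3 factor, lay between them at 326 per kb on a count of 2108. Of the PEA3 transcripts, that of ETV5 was thus the most abundant in this pool of cultures.

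The order per kb was DUSP6, DUSP4, ETV5, SPRY2, SPRY4, DUSP5, DUSP1, SPRED2, ETV4 and SPRED1. The first 4 genes, from 1080 to 940 per kb, differed by a ratio of at most 1.15 with the MANE Select length. Below them, SPRY4, DUSP5 and DUSP1 extended from 470 to 350 per kb, and the remaining 3 genes from 194 to 142 per kb. The distance from first to last was 7.59-fold. With the length of the union of exons, the first 4 genes stayed in the same order, SPRY4 moved behind DUSP5, and ETV4 moved behind SPRED1. The ratio of DUSP6 to SPRY2 was then 1.52, and it was 1.36 with the longest transcript. SPRY4 was behind DUSP5 with the longest transcript as well, at 431 and 436 per kb. Whether neighbours in this order differ beyond the spread between cultures could not be tested.

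The other genes of the pathway were examined in 7 lists of 52 genes, and 51 of them were expressed by the same minimum of 10. Of all 19792 genes listed, 13548 reached this minimum. All 12 genes of the ERK cascade were expressed, with a median of 508 per kb, and 11 were above the median gene. NRAS was the highest at 2342 per kb and the scaffold gene KSR1 the lowest at 129 per kb. Of the 9 regulators of RAS, 7 were above the median gene. They extended from GAB1, an adaptor at 68.8 per kb, to SHC1, an adaptor of receptor tyrosine kinases at 8270 per kb. The 6 kinases activated by ERK had a lower median of 162 per kb, and 2 of them, MKNK2 (606 per kb, the highest) and RPS6KA3, were above the median gene. RPS6KA5 was the lowest at 14.4 per kb, a value that rests on an annotated reference transcript of 26829 bases.

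**Figure D2:**
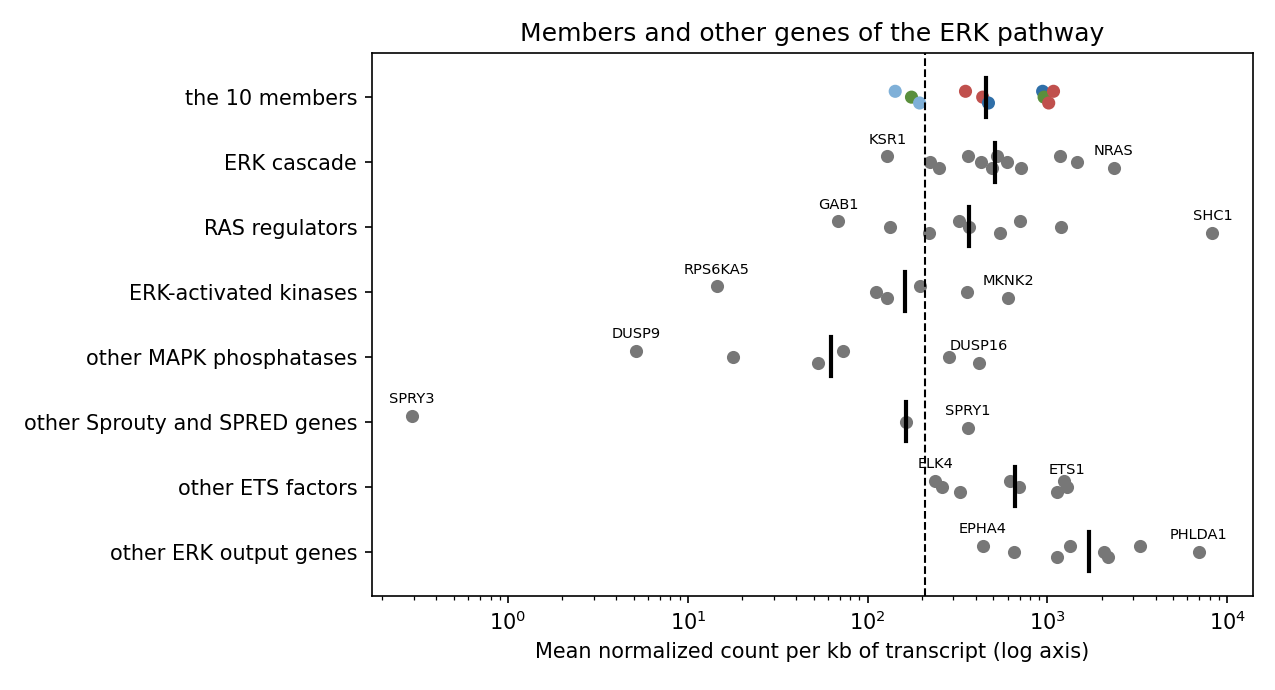
Counts per kb of transcript (log axis) for the 10 genes, coloured by family as before, and for 52 other genes of the ERK pathway in grey. Each point is 1 gene, as a mean over 6 libraries. The short black bar is the median of its row, from 62.7 per kb for the other MAPK phosphatases to 1695 for the other ERK output genes. The dashed line is the median expressed gene, and the lowest and highest gene of each grey row are named.

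Within their families, the DUSP members were at the upper end. The 6 other MAP kinase phosphatases had a median of 62.7 per kb, with DUSP16, which acts mainly on JNK and p38, highest at 414 and DUSP9 lowest at 5.18 per kb. DUSP7, a cytoplasmic relative of DUSP6, was at 283 per kb. Thus DUSP1, the lowest of the DUSP members at 350 per kb, was above all of these genes but DUSP16. Among the other Sprouty and SPRED genes, SPRY1 was at 360 and SPRED3 at 163 per kb. SPRY3 had a mean normalized count of only 2.61.

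The 8 other ETS factors examined, which were selected by hand, were all above the median gene. They extended from ELK4 at 238 per kb to ETS1 at 1288 per kb. ETV4 was below each of them, and ETV5 was below ETS1, ERF and ETS2. The 8 other genes read as ERK output, which include the transcription factors EGR1, FOSL1 and MYC and the cyclin gene CCND1, had a median of 1695 per kb. They extended from EPHA4 at 436 per kb to PHLDA1 at 6929 per kb. The medians of 1695 per kb for these 8 genes and 453 per kb for the 10 feedback inhibitors and ETS factors are given as a description only, since the genes were selected by hand.

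The labelled line was checked against marker genes. All 5 mesenchymal markers (VIM, FN1, CDH2, ZEB1 and SNAI2) were above the median gene, and VIM, an intermediate filament gene, was at 22183 per kb. The estrogen and progesterone receptor genes ESR1 and PGR had mean normalized counts of 0.790 and 0.801, and the epithelial adhesion gene EPCAM of 1.30. ERBB2 was at 268 per kb, near the median gene, and KRT18 at 308 per kb. The epithelial genes CDH1 and KRT8 were at 12.4 and 32.1 per kb, on mean normalized counts of 59.6 and 57.3. The leukocyte gene PTPRC had a count of 44.7 and the endothelial gene PECAM1 of 2.86. The targeted gene WDR5 had a count of 1143, or 362 per kb (63.5 percentile), as a mean over vehicle and DOX cultures, and this pooled value is no check of the silencing.

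Structures of the 10 genes were taken from GENCODE 44 on GRCh38. The DUSP and SPRY genes were compact. DUSP1 lies on chromosome 5 from 172768096 to 172771195, DUSP4 on chromosome 8 from 29333064 to 29350684, DUSP5 on chromosome 10 from 110497907 to 110511533 and DUSP6 on chromosome 12 from 89347235 to 89352501. SPRY2 lies on chromosome 13 from 80335976 to 80341126, and SPRY4 on chromosome 5 from 142310427 to 142326455. These 6 genes span 3.10 to 17.6 kb, with 2 exons in the SPRY genes, 3 in DUSP6 and 4 in the other DUSP genes. Over 12169 expressed coding genes, the median was 9 exons and 35.1 kb.

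The SPRED and ETS genes were larger. SPRED1 lies on chromosome 15 from 38252836 to 38357249 with 7 exons, and SPRED2 on chromosome 2 from 65310851 to 65432637 with 6. ETV4 lies on chromosome 17 from 43527844 to 43579620, and ETV5 on chromosome 3 from 186046314 to 186110318, both with 13 exons. They span 51.8 to 122 kb. Of all expressed coding genes, 12.1% have 3 exons or fewer, and SPRY2, SPRY4 and DUSP6 are among them.

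The encoded proteins were compared after translation of the MANE Select coding sequences. Among the DUSP proteins, DUSP1 and DUSP4 were the most alike, with 63.5% identity over 367 aligned residues. DUSP5 was 50.1% identical to DUSP1 and 50.4% to DUSP4. DUSP6 was 36.5% to 37.6% identical to the other 3. The 2 SPRED proteins were 58.7% identical, the 2 SPRY proteins 47.0%, and SPRY and SPRED proteins 25.2% to 29.5% between families. ETV4 and ETV5 were 56.8% identical. Percentages are over aligned residues without gaps.

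Reads could be shared with other genes for some members. The exons of DUSP6 overlap an unnamed lncRNA on the opposite strand over 1105 bases, 28.6% of its exonic length. Those of ETV4 overlap the helicase gene DHX8 on the opposite strand over 68 bases, and those of ETV5 overlap DGKG on the same strand over 164 bases. The libraries were stranded, but the strand setting of the counter is not given in the sources used here. DGKG had a mean normalized count of 2.17 and DHX8 of 1380. The pseudogene DUSP5P1 was listed at 18.4, beside 1081 for DUSP5. SPRY4-AS1 and SPRY4-IT1 were listed at 14.1 and 13.6, beside 2303 for SPRY4.

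Transcripts of early response genes are often short-lived through AU-rich elements in the 3′ UTR, of which the pentamer ATTTA is the core. A pentamer was found in the 3′ UTR of 8 of the 10 transcripts, and of 74.9% of 12144 other expressed coding genes with a 3′ UTR. The 3′ UTRs of the set are longer, with a median of 2172 bases against 1387. Among the 7795 other genes whose 3′ UTR is within the range of lengths of the set, 88.4% had a pentamer. Where present, the number extended from 1 in DUSP6 to 24 in SPRED1, whose 3′ UTR of 5585 bases is the longest. Per kb of 3′ UTR, DUSP1 was highest at 6.01, followed by SPRED1 at 4.30 and SPRY2 at 2.56. No pentamer was found in DUSP5 and ETV4. The median of the 10 genes was 1.80 per kb, that of the other coding genes 1.79 per kb, and that of the genes in the same range of lengths 2.01 per kb.

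**Figure D3:**
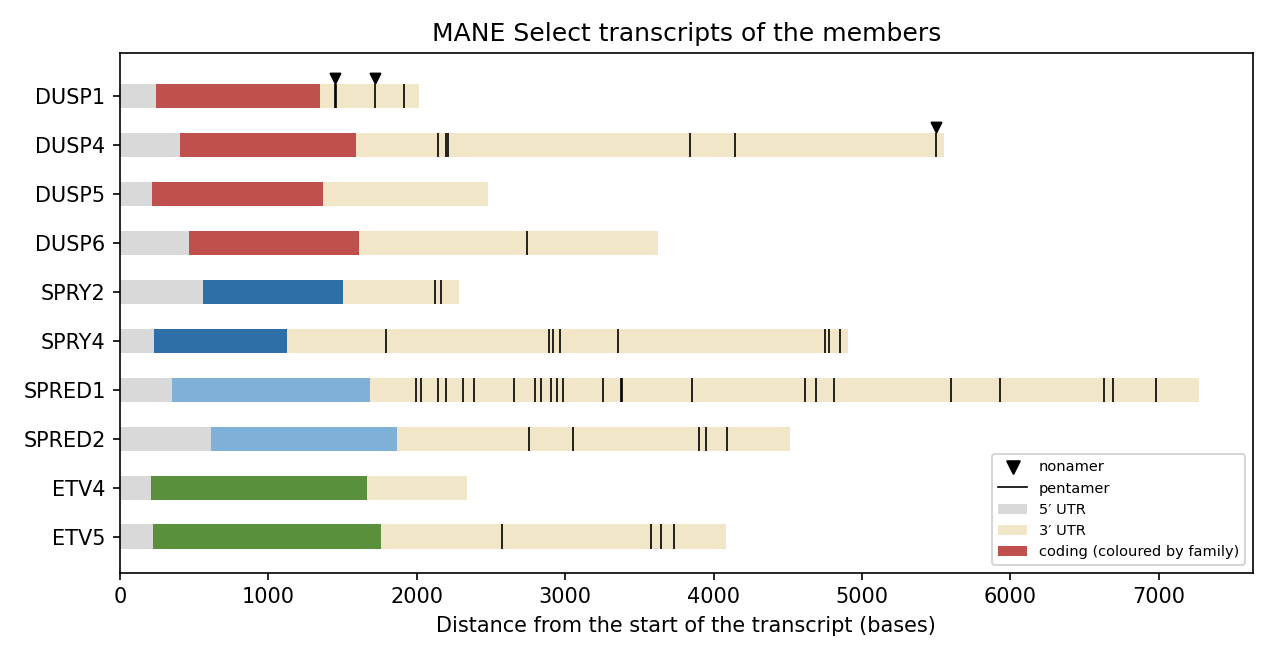
MANE Select transcripts of the 10 genes drawn to scale from the start of the transcript, with the 5′ UTR in grey, the coding sequence coloured by family and the 3′ UTR in beige. Black lines mark each pentamer and triangles each nonamer of AU-rich elements in the 3′ UTR. SPRED1 carries 24 pentamers, DUSP1, the shortest transcript, has 2 nonamers, and DUSP5 and ETV4 have no mark.

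The longer nonamer TTATTTATT, a stricter form of the AU-rich element, was found in DUSP1 and DUSP4 only, 2 of the 10 genes, in 10.1% of the other expressed coding genes and in 11.4% of those in the same range of lengths. DUSP1 has 2 copies, starting at positions 101 and 369 of its 3′ UTR of 666 bases, and DUSP4 has 1.

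Both copies of DUSP1 are shown as examples of the element, in the sense of the transcript and with the nonamer in capitals. They lie on the minus strand of GRCh38 at chr5:172768644-172768670 and chr5:172768376-172768402, in the 3′ UTR.
DUSP1 first copy: ggctggtccTTATTTATTtaacttcac
DUSP1 second copy: gaatataccTTATTTATTtttgtgtag

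Promoter windows of 300 bases, from 250 before to 50 after an annotated start, were matched by symbol in RefSeq (GRCh38.p14). Windows were held for DUSP1, DUSP6, SPRY2, SPRY4, SPRED1 and SPRED2, 9 windows in all, since SPRY2 has 3 starts and SPRED2 has 2. DUSP4, DUSP5, ETV4 and ETV5 had no entry. Both strands were searched for 6 motifs. The ETS site CCGGAAGT was in none of the 9 windows and in 7.18% of 14867 windows of expressed genes. The GC box core GGGCGG was in 6 of the 9 and in 65.7%. The E-box CACGTG was found in 1 window, that of DUSP1, and in 9.22% of all windows. The sequence TATAAA was found in DUSP1 and in a second window of SPRED2, and in 6.31% of all windows.

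The AP-1 site TGACTCA was found in 1 window, at an internal start of SPRED2, and in 3.52% of all windows. The cAMP response element (CRE) TGACGTCA was found in DUSP1 alone, and in 2.82% of all windows. The CRE is bound by CREB and ATF proteins, and DUSP1 is a textbook gene of this class. Both sites are shown with their motif in capitals, in the sense of the gene, on the minus strand. That of DUSP1 is at chr5:172771303-172771330, with its first base at -125 from the start. That of SPRED2 is at chr2:65366767-65366794, with its first base at -6 from the internal start.
DUSP1 CRE: gcagggcgggTGACGTCAccgccccgtc
SPRED2 AP-1 site: aaccctcggaTGACTCAtccggtacaat

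A match describes letters in these windows, and binding at the sites was not measured. The median GC content of the 9 windows was 63.0%, and that of all windows 64.7%. The median ratio of observed to expected CpG was 0.769 for the 9 windows and 0.812 for all windows. The most upstream window held for each of the 6 genes had a ratio from 0.737 to 0.893. The further windows had 0.531 and 0.417 in SPRY2 and 0.346 in SPRED2, the last of which holds the AP-1 site.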

How the data were processed

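Per the paper's methods and the labels, the authors took RNA from cultures in triplicate, made stranded libraries of poly(A) RNA, used STAR to align the reads to GRCh38, and used DESeq2 for normalization and comparison of the counts. The genome's name carries a suffix in the methods (GRCh38 with a release-like number), but the counter, the annotation file and the versions of STAR and DESeq2 are not given in the sources used here. The deposited table holds 1 row per symbol. The one column used is a signal that the authors derived from counts, namely the normalized count averaged over all 6 libraries. Its other columns (log2 fold change of DOX against vehicle, standard error, statistic, p-value and adjusted p-value) are the authors' own comparison and were not used. The design planned a count test for columns of single libraries, which this table does not hold, so no test was made and precision is unknown.

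Of 19792 symbols, 17729 matched GENCODE 44 directly and 594 through an older symbol. Levels were divided by the length of the MANE Select transcript or, where a gene has none, the canonical transcript. The background of percentiles was formed by expressed genes, those whose mean normalized count reached 10. Proteins were aligned globally with BLOSUM62, gap penalties of 11 and 1, and free end gaps. Named were the 10 members, WDR5, marker genes and the highest and lowest gene of each pathway list. Other genes of these lists (NF1, ETV1, DUSP7, SPRED3, RPS6KA3, ERF, ETS2, EGR1, FOSL1, MYC and CCND1), and the genes that overlap or derive from members, were named after their values were seen. Members and lists were chosen with earlier results of these data known. The code was tested on simulated data. Python 3.11.15, numpy 2.4.6, pandas 2.3.3, scipy 1.17.1, Biopython 1.88 and matplotlib 3.10.9 were used.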

Additional observations from a re-analysis of the deposited data

How the results depend on the processing

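The median percentile of the 10 genes per kb was 69.2. It was 71.7 with the longest transcript as the length and 76.7 with the union of exons. Against every gene listed with a known length it was 78.1, and against genes that reached a mean normalized count of 50 it was 64.7. SPRED2 passed the median gene with the longest transcript (51.6 percentile), and SPRED1 and SPRED2 with the union of exons (50.9 and 55.3). SPRED1, SPRED2 and ETV4 passed it against every gene listed with a known length (58.2, 63.3 and 61.5). The number of expressed pathway genes was 51 at a minimum of 10 and 49 at 50 and at 100. The median exon number of the 10 genes was 4 with either transcript. DUSP6 passed the 90th percentile with the union of exons (91.9) and against every gene listed with a known length (90.2). Identity over the shorter protein, in place of aligned residues, was lower for 12 of the 13 pairs, by at most 6.92 points (SPRY2 and SPRED1, 22.5%), and was lowest for SPRY4 and SPRED1 (21.4%). No paired analysis was possible because the table holds no column of a single library. For the same reason, other scalings, low-count filters on a test, and leaving out a replicate were not run. The pooled mean has no replicate error, so small differences in level between genes cannot be read.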
